A study of Mus musculus with 16 samples.

Results

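The transcripts of the mitochondrial genome were examined in maturing red cell precursors of *Ypel4* wild-type and null mice. The set was chosen by name, as every gene of the deposited counts whose symbol begins with mt-, which gave 37 of 46078 genes: 13 protein-coding genes, 2 rRNA genes and 22 tRNA genes. Counts above 0 were present for 10 of the 37, each in all 16 libraries, and the other 27 were at 0 in all 16 libraries.

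RNA came from polychromatic (Poly-E) and orthochromatic (Ortho-E) erythroblasts, the last nucleated stages before the reticulocyte, sorted by FACS from steady-state bone marrow on Ter119 and CD44 with dead cells removed by propidium iodide. Mice were homozygous wild-type (*Ypel4*+/+) or homozygous mutant (*Ypel4*-/-) from a C57BL/6N line with A<tm1Brd> and the gene-trap allele Ypel4<tm1a(EUCOMM)Wtsi>, line code WtsiIeg. The trap is constitutive, so that *Ypel4* is disrupted in every tissue and not only in erythroid cells. There were 4 libraries in each of the 4 groups from untreated mice, whose age was not given in the sources used here. Libraries came from a poly(A)-selecting kit, so that levels are of captured RNA only. How capture differed between genes was not tested. Poly-E and Ortho-E libraries of a genotype that share a replicate number also share a further number in their deposited names, and are taken here to come from the same mouse.

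The mitochondrial genome is a small circular DNA that is transcribed from both strands as long precursors, from which the tRNAs are cut out and the mRNAs and rRNAs are released between them. Its mRNAs encode core subunits of the respiratory chain complexes and of the ATP synthase, its rRNAs form the mitochondrial ribosome, and most proteins that copy, cut, stabilise or translate its RNA are made from nuclear genes. Erythroblasts need mitochondria for haem synthesis, and red cells lose them during the last steps of maturation.

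Library totals ranged from 2670173 to 12451234 counts. Levels are given as CPM, counts divided by library size, scaled by the TMM method of edgeR unless said otherwise. Among Poly-E libraries *Ypel4* itself ranged from 490 to 716 CPM in *Ypel4*+/+ mice and from 9.90 to 23.6 in *Ypel4*-/- mice. Among Ortho-E libraries it ranged from 4432 to 5440 and from 175 to 224. The 10 erythroid markers summed to 89129 to 103224 CPM of the library total in Poly-E and to 147313 to 183047 in Ortho-E. Not every one followed the sum. In *Ypel4*+/+ mice *Klf1* went from 19442 counts in Poly-E to 4329 in Ortho-E, *Gata1* from 10895 to 2622 and *Epor* from 14248 to 4085. The mean library total fell less, from 6.16e+06 to 4.50e+06, and these genes fell in *Ypel4*-/- mice as well. The 10 neutrophil and monocyte markers summed to 3.29 to 12.9 CPM in all groups. The 6 lymphoid markers, with *Cd3e* at 0, summed to 48.4 to 63.5 CPM in Poly-E and 29.9 to 49.1 in Ortho-E of *Ypel4*+/+ mice, and to 58.3 to 100.1 and 44.6 to 75.4 in *Ypel4*-/- mice, and the 4 megakaryocyte markers to 26.3 to 35.9 in Poly-E and 55.8 to 67.7 in Ortho-E, nearly all from *Itga2b*, with *Gp1bb* at 0 throughout and *Pf4* at 0 in Ortho-E. The 3 early progenitor markers summed to at most 0.597 CPM. The part of these markers in the results was not tested.

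Which mitochondrial genes can be read from these counts depends on how unique their sequence is. A read pair was counted only where it mapped to 1 place and overlapped 1 gene, and parts of the mitochondrial genome are also present as copies in nuclear DNA. The first 60 bases of *mt-Co2*, a subunit of cytochrome c oxidase (complex IV), and of *Gm28661*, an annotated nuclear gene, are shown because they are the same in every letter. The copy is at chr1:24615506-24615565 on the minus strand and the mitochondrial gene at MT:7013-7072 on the plus strand, both in GRCm38, as given in the transcripts of GENCODE M21.

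mt-Co2, bases 1 to 60: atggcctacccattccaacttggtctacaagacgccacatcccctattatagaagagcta
Gm28661, bases 1 to 60: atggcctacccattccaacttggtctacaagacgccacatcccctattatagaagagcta

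The copy of *mt-Co2* aligned over 681 bases with 681 identical. Copies without a difference were also found on chromosome 1 for *mt-Atp6* (*Gm10925*, 678 bases), *mt-Co3* (*Gm28437*, 783), *mt-Nd3* (*Gm28438*, 342), *mt-Nd4l* (*Gm10222*, 294) and bases 1 to 876 of *mt-Nd4* (*Gm28439*). These copies lie beside each other on the minus strand, from 24611535 to 24616197, together with *Gm29216*, which matched 482 of 483 bases at the end of *mt-Co1*. Of all 75-base windows, 99.5% had an exact copy in an annotated nuclear transcript for *mt-Co2*, 99.5% for *mt-Atp6*, 99.9% for *mt-Co3*, 97.8% for *mt-Nd3* and 98.7% for *mt-Nd4l*. All 5 of these genes were at 0 in all 16 libraries. The read length was not given in the sources used here, and with 50-base windows the shares were 100% for *mt-Co2*, 62.2% for *mt-Nd4* and 51.1% for *mt-Co1*. With 75-base windows it was 61.5% for *mt-Nd4*, 39.8% for *mt-Co1*, 5.71% for *mt-Nd2* and 1.66% for *mt-Nd5*, and it was 0 for *mt-Nd1*, *mt-Nd6*, *mt-Cytb* and both rRNA genes. All of these had counts.

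**Figure D1:**
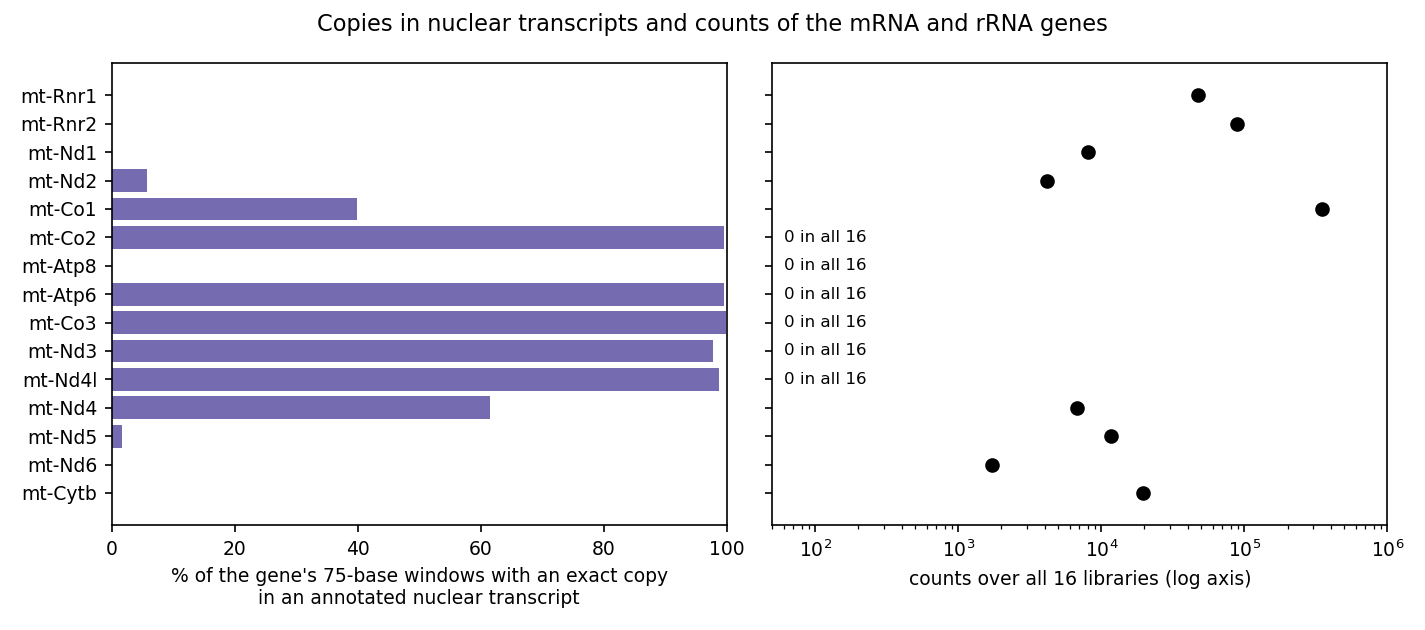
Left, percent of the 75-base windows of each mitochondrial mRNA and rRNA gene with an exact copy in an annotated nuclear transcript. Right, the counts of the gene summed over all 16 libraries on a log axis. The 5 genes above 97% on the left are at 0 on the right, and *mt-Atp8* is at 0 with no copied window in an annotated transcript.

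The copies themselves held few counts. Over all 16 libraries *Gm29216* had 255 counts, *Gm28661* 131, *Gm10925* 95, *Gm28437* 74, *Gm28438* 20, *Gm28439* 5 and *Gm10222* 2. The 0 of a mitochondrial gene that is copied over its whole length is therefore no measure of its RNA, since pairs that map to both places were not counted. The reads were not analysed here, and how many such pairs there were was not tested. With 3 counts as the floor, a count of 0 allows up to 0.241 CPM of the library total in the deepest library and 1.12 CPM in the shallowest, for pairs that could be counted and for counting error only.

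*mt-Atp8*, the other ATP synthase subunit beside *mt-Atp6*, was also at 0 but had no copied 75-base window in an annotated transcript. It is a gene of 204 bases at MT:7766-7969, and its last 43 bases (MT:7927-7969, plus strand, GRCm38) are also the first 43 of *mt-Atp6*, which is shown because pairs across it overlap more than 1 gene. Only annotated transcripts were searched, so that the nuclear sequence between *Gm28661* and *Gm10925*, the copies of its neighbours, was not compared.

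mt-Atp8 and mt-Atp6, shared bases: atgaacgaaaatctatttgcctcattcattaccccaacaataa

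Among the 22 tRNA genes, the only member with counts was *mt-Tp*, the tRNA for proline, with 4701 counts over 16 libraries. The 21 others, 59 to 75 bases long, were at 0. Of these, 20 had annotated neighbours on both sides, at most 5 bases away, apart from the 32 bases between *mt-Tn* and *mt-Tc*. *mt-Tp*, at MT:15356-15422 on the minus strand, adjoins *mt-Tt* on one side and the control region, which holds no annotated gene, on the other. *mt-Tf* borders the control region from its other end and was at 0. The 67 bases of *mt-Tp* are shown, from GENCODE M21 (GRCm38), as the only tRNA with values.

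mt-Tp, whole gene: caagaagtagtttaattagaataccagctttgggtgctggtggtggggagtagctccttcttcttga

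The counts did not use strand. *mt-Nd6* and *mt-Tp* are encoded on the opposite strand from the other 8 counted genes, and RNA from either strand over them is counted alike. The ends of *mt-Co3*, *mt-Nd4* and *mt-Cytb* are shown because their annotated length leaves 1 base, the T in capitals, after the last whole codon. In such mitochondrial mRNAs the stop codon is known to be completed by the poly(A) tail, to which poly(A)-based library kits bind. The other 10 protein-coding genes ended in a whole stop codon.

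mt-Co3, MT:9366-9390: gtctccatttattgatgaggatctT
mt-Nd4, MT:11520-11544: aaactaattacaggcctgacaataT
mt-Cytb, MT:15264-15288: gacaaaatactaaaattatatccaT

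Pairs that also map to a nuclear copy were not counted, so that the shares below are no measure of all mitochondrial RNA. The share of a library's counts on mitochondrial genes was small in all groups. It was 0.823%, 0.638%, 0.577% and 0.572% in the 4 *Ypel4*+/+ Poly-E libraries and 0.618%, 0.550%, 0.536% and 0.499% in the *Ypel4*+/+ Ortho-E libraries, replicates 1 to 4. In *Ypel4*-/- mice it was 0.840%, 0.969%, 0.672% and 0.607% for Poly-E, against 0.735%, 0.546%, 0.655% and 0.507% for Ortho-E. The share was lower in Ortho-E than in Poly-E of the same mouse in 4 of 4 mice of each genotype, with group ranges that overlapped. *Ypel4*+/+ means were 0.652 ± 0.118% for Poly-E and 0.551 ± 0.0496% for Ortho-E, and *Ypel4*-/- means were 0.772 ± 0.164% for Poly-E and 0.611 ± 0.104% for Ortho-E (SD, n = 4 each).

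The mRNA genes and the rRNA genes differed in how their share moved. The 7 counted mRNA genes together took 0.513 ± 0.0774% of counts in *Ypel4*+/+ Poly-E and 0.382 ± 0.0506% in *Ypel4*+/+ Ortho-E, and were lower in Ortho-E in 4 of 4 mice of each genotype. The rRNA genes *mt-Rnr1* (12S) and *mt-Rnr2* (16S) together took 0.133 ± 0.0497% in *Ypel4*+/+ Poly-E and 0.165 ± 0.0326% in *Ypel4*+/+ Ortho-E, and were higher in Ortho-E in 3 of 4 mice of each genotype (SD, n = 4 each). Of the mitochondrial counts, the rRNA genes made up 14.1% to 24.9% of those of Poly-E and 21.5% to 35.3% of those of Ortho-E for *Ypel4*+/+ mice, with 19.2% to 21.8% and 28.8% to 39.2% for *Ypel4*-/- mice. The groups of *Ypel4*-/- mice did not overlap, and those of *Ypel4*+/+ mice did.

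**Figure D2:**
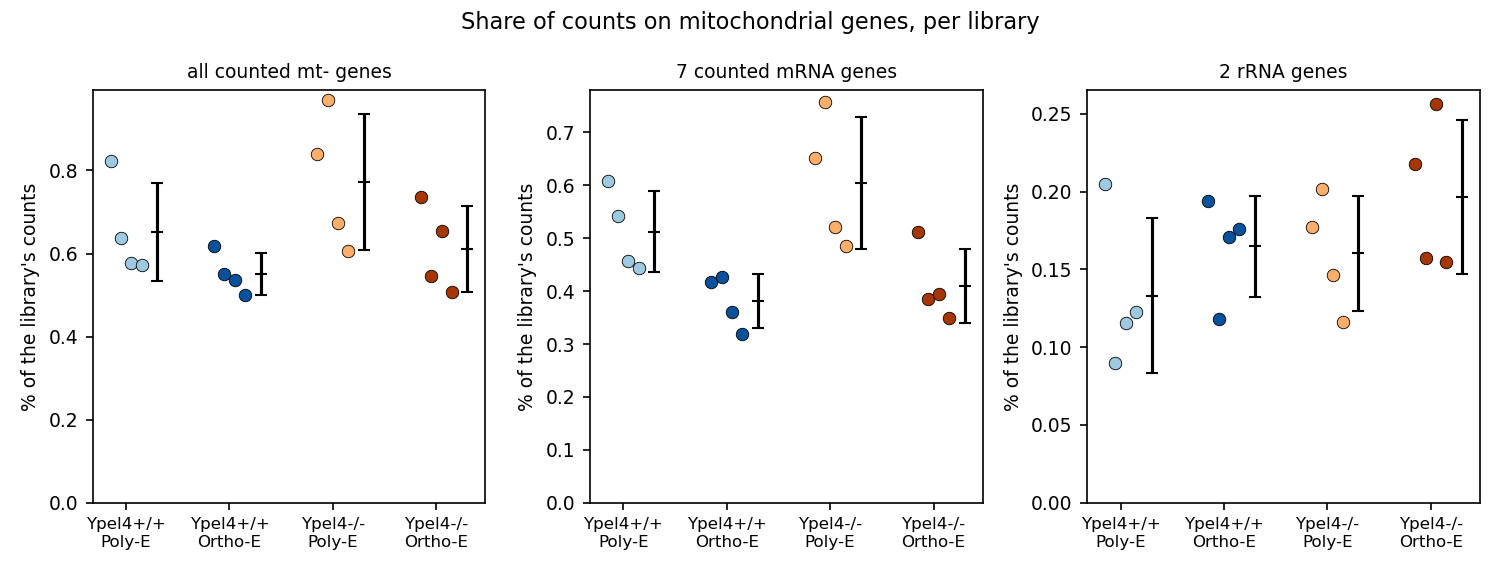
Percent of each library's counts on all counted mitochondrial genes, on the 7 counted mRNA genes and on the 2 rRNA genes. Each point is a library, replicates 1 to 4 from left to right in each group, and bars are the mean and SD (n = 4). The mRNA share is lower in Ortho-E in every mouse, and the rRNA share is higher in 3 of 4 mice of each genotype.

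The highest level per length among the counted mRNA and rRNA genes in every group was that of *mt-Co1*, the catalytic subunit of complex IV. In CPM per kb of gene length, *mt-Co1* averaged 1914 ± 364 for *Ypel4*+/+ Poly-E, 3509 ± 521 for *Ypel4*+/+ Ortho-E, 2115 ± 448 for *Ypel4*-/- Poly-E and 3536 ± 375 for *Ypel4*-/- Ortho-E (SD, n = 4 each). It alone held 53.4% to 74.3% of the mitochondrial counts of a library. *mt-Cytb*, the cytochrome b subunit of complex III, was the next mRNA, at 154 ± 30.5, 191 ± 32.5, 200 ± 73.3 and 226 ± 28.1 CPM per kb in the same order of groups.

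The 5 counted complex I subunits were below these. With groups in that order, *mt-Nd1* was at 72.7 ± 14.9, 104 ± 22.1, 97.3 ± 38.1 and 115 ± 27.3 CPM per kb. *mt-Nd5* was at 49.7 ± 10.1, 63.2 ± 11.4, 65.1 ± 12.7 and 85.5 ± 10.9. *mt-Nd4* was at 42.0 ± 4.85, 61.01 ± 3.21, 52.8 ± 13.7 and 66.4 ± 7.94. The lowest were *mt-Nd2*, at 33.3 ± 1.70, 44.9 ± 4.11, 45.2 ± 12.5 and 52.7 ± 3.55, and *mt-Nd6*, at 29.4 ± 3.63, 29.7 ± 2.40, 35.5 ± 7.08 and 41.1 ± 3.88 CPM per kb. The levels of *mt-Co2*, *mt-Co3*, *mt-Atp6*, *mt-Atp8*, *mt-Nd3* and *mt-Nd4l* have no place in this order, since they were listed at 0 in every group.

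The order of the mRNA genes by mean was the same in all 4 groups: *mt-Co1*, *mt-Cytb*, *mt-Nd1*, *mt-Nd5*, *mt-Nd4*, *mt-Nd2*, *mt-Nd6*. Neighbours did not all differ beyond their spread. The libraries of *mt-Nd5* and *mt-Nd4* overlapped in 3 of the 4 groups, the exception being *Ypel4*-/- Ortho-E, and in *Ypel4*-/- Poly-E every neighbouring pair from *mt-Cytb* down to *mt-Nd6* overlapped. With length counted only as windows not copied in nuclear transcripts, *mt-Nd4* stood at 115 ± 13.3 per kb in *Ypel4*+/+ Poly-E and moved ahead of *mt-Nd1* and *mt-Nd5* in all 4 groups, and *mt-Co1* stood at 3342 ± 636 in *Ypel4*+/+ Poly-E. That length was chosen after the data were seen.

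The order of the rRNA genes by mean differed between the populations. *mt-Rnr1* had the higher mean in Poly-E, at 394 ± 257 CPM per kb in *Ypel4*+/+ and 429 ± 161 in *Ypel4*-/- mice, against 323 ± 80.5 and 387 ± 71.5 for *mt-Rnr2*. In Ortho-E *mt-Rnr2* had the higher mean, at 1110 ± 237 and 1290 ± 366, against 887 ± 266 and 971 ± 285 for *mt-Rnr1* (SD, n = 4 each). The libraries of the rRNA genes overlapped each other in all 4 groups. In Poly-E the order rested on single libraries: *mt-Rnr1* was the higher in replicates 1 and 2 and *mt-Rnr2* in replicates 3 and 4 of both genotypes, and without replicate 1 the means were 266 for *mt-Rnr1* and 290 for *mt-Rnr2* in *Ypel4*+/+ mice and 389 and 399 in *Ypel4*-/- mice. In Ortho-E *mt-Rnr2* was the higher in 4 of 4 and 3 of 4 libraries.

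**Figure D3:**
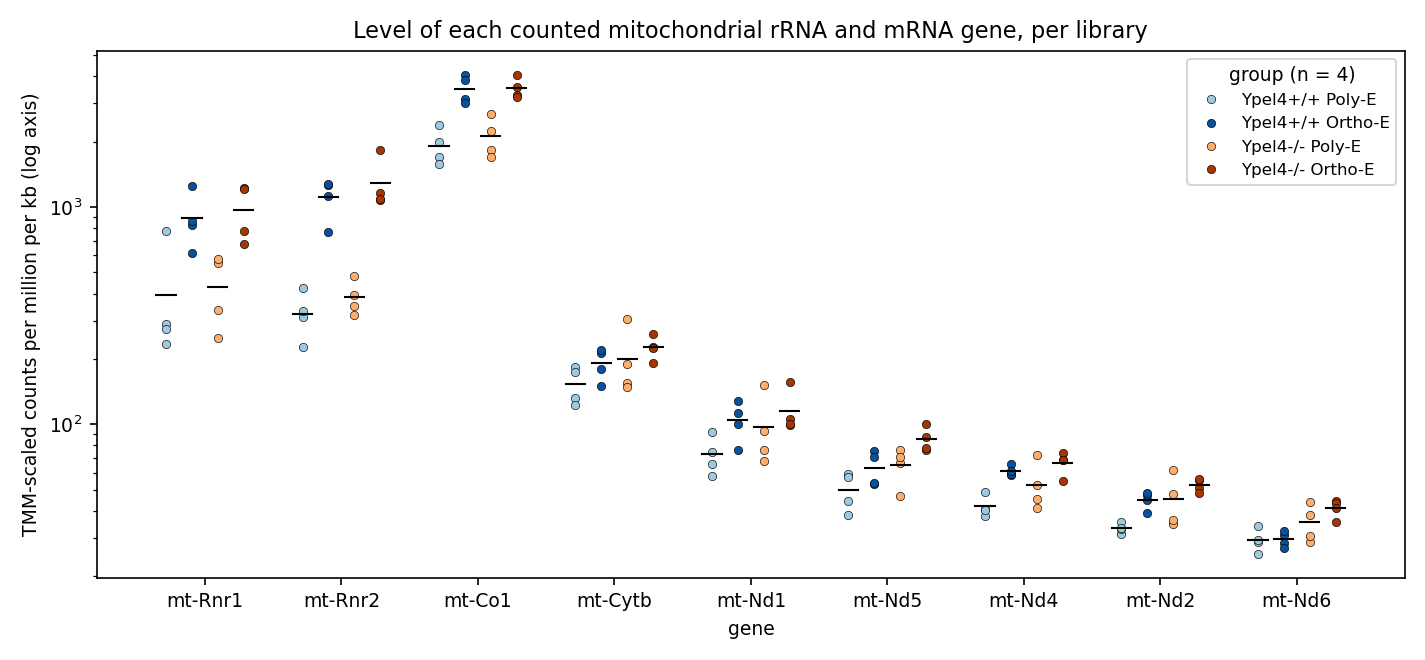
Level of each counted rRNA and mRNA gene in TMM-scaled CPM per kb, on a log axis. Points are libraries (4 per group), lines are group means and colours are the 4 groups. By mean, *mt-Co1* is the highest and *mt-Nd6* the lowest in every group, and 1 *Ypel4*+/+ Poly-E library of *mt-Rnr1* stands apart from the 3 others.

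Ortho-E was compared with Poly-E within each genotype to ask whether mitochondrial transcripts change with the stage. The answer depends on the scale. TMM centres a trimmed mean of the differences between libraries, and on it the 10 members had log2 fold changes (Ortho-E over Poly-E) of 0.04 to 1.81 in *Ypel4*+/+ mice, of which 7 were called higher and 0 lower by edgeR's quasi-likelihood test at an adjusted p of 0.05 or less. That scale gave 26.4% higher and 32.1% lower calls over the 11747 genes tested. Scaled by library totals only, 1 of the 10 was called higher and 8 were called lower, where 10.4% of all tested genes were called higher and 60.3% lower. In *Ypel4*-/- mice 6 of the 10 were called higher and 0 lower on the TMM scale, where 29.5% of 11973 tested genes were called higher and 31.5% lower. By library totals 1 was called higher and 7 lower there, against 11.2% and 60.9% of all tested genes.

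The median of all tested genes was at a log2 fold change of -0.19 on the TMM scale in *Ypel4*+/+ mice, and it moved by -1.26 with library totals. In *Ypel4*-/- mice it was at -0.09 and moved by -1.39. Globin genes took 5.36% to 6.43% of all counts in Poly-E libraries, whereas they took 10.7% to 13.9% in Ortho-E libraries. Their part in the shift of the median was not tested. On the TMM scale the members were above the median of all tested genes by 0.23 to 2.01 in *Ypel4*+/+ mice and by 0.46 to 2.01 in *Ypel4*-/- mice. With library totals they were above it by 0.20 to 1.98 and 0.42 to 1.96. A change of scale moves all genes and their median by almost the same amount. Library totals therefore give no separate support for this position. The counted mRNA genes and *mt-Tp* took a smaller part of all counts in Ortho-E by mean, whereas the rRNA genes did not fall together. As a share of all counts *mt-Rnr2* was higher in 4 of 4 *Ypel4*+/+ and 3 of 4 *Ypel4*-/- mice, and *mt-Rnr1* in 3 of 4 and 2 of 4. In sorted populations, fewer cells of a kind and less RNA per cell cannot be told apart.

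*mt-Rnr2* showed the widest difference on the TMM scale and kept its direction with library totals. Its TMM-scaled levels were 669, 359, 493 and 525 CPM for *Ypel4*+/+ Poly-E and 2006, 1218, 1776 and 2021 for *Ypel4*+/+ Ortho-E, and 555, 766, 621 and 505 for *Ypel4*-/- Poly-E and 1828, 1703, 2905 and 1727 for *Ypel4*-/- Ortho-E. All Ortho-E libraries lay above all Poly-E libraries. Groups without overlap in TMM-scaled CPM were present for 4 of the 10 members (40%) in each genotype, where 53.2% of all tested genes in *Ypel4*+/+ and 55.5% in *Ypel4*-/- mice had none. The log2 fold change was 1.81 ± 0.19 (SE) in *Ypel4*+/+ mice (adjusted p = 6.8e-07) and 1.92 ± 0.16 in *Ypel4*-/- mice (adjusted p = 3.4e-09), and 0.53 and 0.49 with library totals.

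*mt-Rnr1* spread more. It was at 743, 224, 276 and 262 CPM for *Ypel4*+/+ Poly-E and 1194, 585, 788 and 821 for *Ypel4*+/+ Ortho-E, and at 525, 553, 320 and 240 for *Ypel4*-/- Poly-E and 1171, 645, 1150 and 743 for *Ypel4*-/- Ortho-E. The *Ypel4*+/+ groups overlapped through replicate 1 of Poly-E, and the *Ypel4*-/- groups did not overlap. The log2 fold change was 1.21 ± 0.47 in *Ypel4*+/+ mice (adjusted p = 0.069) and 1.37 ± 0.34 in *Ypel4*-/- mice (adjusted p = 0.011), and -0.07 and -0.06 with library totals. Without *Ypel4*+/+ Poly-E replicate 1 it was 1.89 in *Ypel4*+/+ mice (adjusted p = 0.00041), and over the 8 fits that each left out 1 library the adjusted p ran up to 0.15.

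*mt-Co1* was called higher on the TMM scale and lower with library totals in both genotypes. It was at 3703, 3069, 2614 and 2444 CPM for *Ypel4*+/+ Poly-E and 6279, 5926, 4841 and 4638 for *Ypel4*+/+ Ortho-E, and at 3456, 4161, 2817 and 2636 for *Ypel4*-/- Poly-E and 6256, 5085, 5527 and 4982 for *Ypel4*-/- Ortho-E, with no overlap in either genotype. The log2 fold change was 0.91 ± 0.14 (adjusted p = 2.8e-06) in *Ypel4*+/+ and 0.93 ± 0.13 (adjusted p = 1.4e-07) in *Ypel4*-/- mice, and -0.37 and -0.50 with library totals.

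The complex I genes and *mt-Cytb* had smaller differences on the TMM scale, all of which turned negative with library totals. In *Ypel4*+/+ mice *mt-Nd4* (0.57 ± 0.13 log2, adjusted p = 0.00036), *mt-Nd1* (0.55 ± 0.16, 0.0060), *mt-Nd2* (0.47 ± 0.14, 0.0039) and *mt-Nd5* (0.38 ± 0.15, 0.032) were called higher. In *Ypel4*-/- mice the called genes were *mt-Nd5* (0.56 ± 0.14, adjusted p = 0.0011), *mt-Nd4* (0.52 ± 0.15, 0.0039) and *mt-Nd2* (0.41 ± 0.15, 0.021). *mt-Nd1* was at 0.44 ± 0.26 (adjusted p = 0.18) there. *mt-Cytb* was at 0.34 ± 0.15 (adjusted p = 0.0501) in *Ypel4*+/+ and 0.37 ± 0.20 (adjusted p = 0.13) in *Ypel4*-/- mice, and the light-strand gene *mt-Nd6* at 0.04 ± 0.18 (adjusted p = 0.88) and 0.38 ± 0.17 (adjusted p = 0.061).

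The counts of *mt-Tp* were also higher in *Ypel4*+/+ Ortho-E on the TMM scale. It was at 64.5, 42.2, 32.8 and 32.0 CPM in *Ypel4*+/+ Poly-E and at 96.7, 70.9, 61.3 and 56.4 in *Ypel4*+/+ Ortho-E, ranges that overlapped, with a log2 fold change of 0.77 ± 0.24 (adjusted p = 0.017) that was -0.50 with library totals. Its value for *Ypel4*-/- mice was 0.59 ± 0.33 (adjusted p = 0.17), and at -0.84 with library totals.

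**Figure D4:**
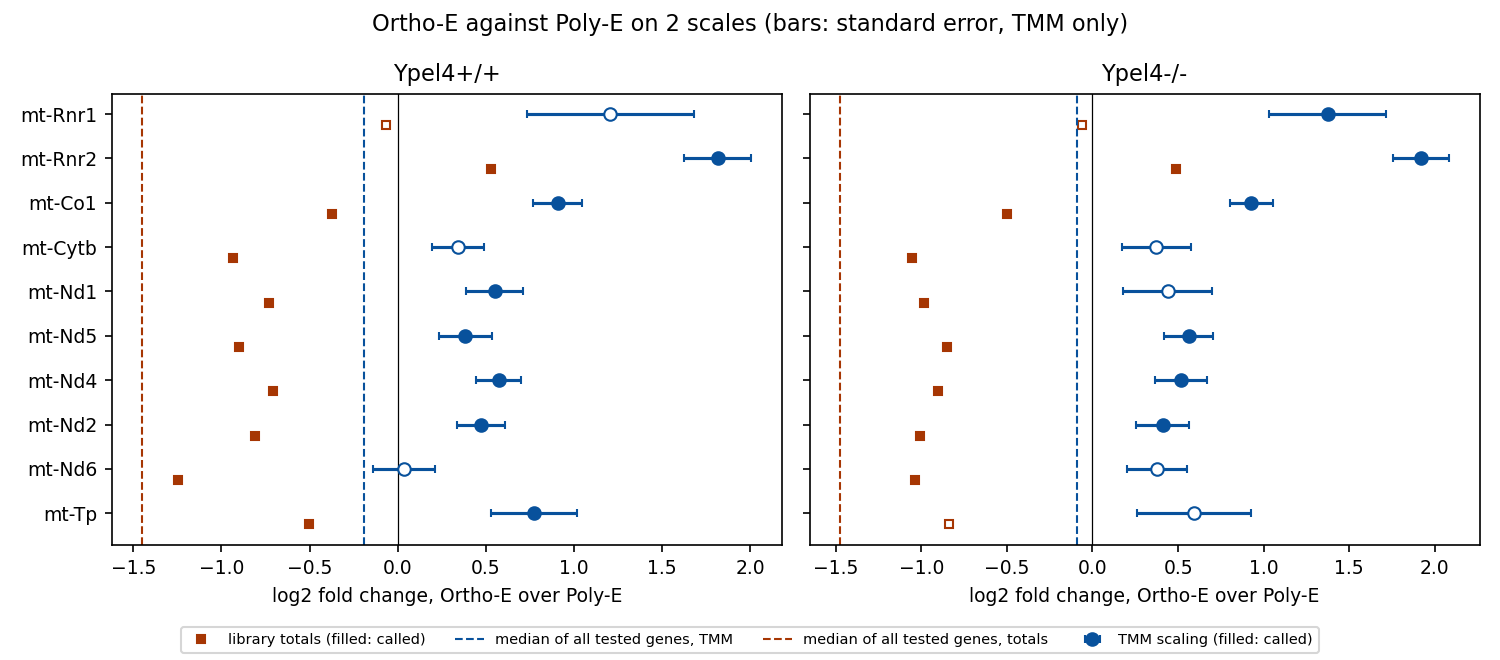
Log2 fold change of each counted mitochondrial gene, Ortho-E over Poly-E, in *Ypel4*+/+ (left) and *Ypel4*-/- mice (right). Circles are the TMM scale with SE, squares are library totals, filled symbols were called, and dashed lines are the median of all tested genes on each scale. The TMM values of *Ypel4*+/+ mice run from 0.04 to 1.81, and the library total values of all genes but *mt-Rnr2* are below 0. Every gene lies to the right of the median, which moves almost as far as the genes do between the scales.

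With the mouse as a replicate block, 9 of the 10 members were called higher in *Ypel4*+/+ mice, where *mt-Rnr1* and *mt-Cytb* joined, and 10 of 10 in *Ypel4*-/- mice, where *mt-Nd1*, *mt-Nd6*, *mt-Cytb* and *mt-Tp* joined, all on the TMM scale. The blocked fits called 27.4% of all tested genes higher and 33.4% lower in *Ypel4*+/+ mice, and 30.1% and 32.4% in *Ypel4*-/- mice. Single libraries decided some calls in the unpaired fit. Without *Ypel4*-/- Poly-E replicate 2, *mt-Nd1* was at 0.71 (adjusted p = 0.00029) and *mt-Cytb* at 0.63 (adjusted p = 0.00019) in *Ypel4*-/- mice. Without *Ypel4*-/- Ortho-E replicate 1 *mt-Nd1* was at 0.21 (adjusted p = 0.51) and *mt-Tp* at 0.33 (adjusted p = 0.44). *mt-Cytb* was called in *Ypel4*+/+ mice without Poly-E replicate 1 or 2 or Ortho-E replicate 4 (0.46 to 0.57). *mt-Nd6* was called in *Ypel4*-/- mice without Poly-E replicate 3 or Ortho-E replicate 4. *mt-Nd2* lost its call in *Ypel4*-/- mice when Ortho-E replicate 1, 2 or 3 or Poly-E replicate 1 or 4 was left out (adjusted p up to 0.12), and *mt-Nd5* lost its call in *Ypel4*+/+ mice without Ortho-E replicate 3 (0.13) or 4 (0.090).

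Ratios of counts between members do not depend on the scale. For each count of *mt-Cytb* there were 1.79 to 3.73 counts of *mt-Rnr2* in *Ypel4*+/+ Poly-E and 4.83 to 11.8 in *Ypel4*+/+ Ortho-E, and 2.19 to 3.51 and 6.13 to 11.3 in *Ypel4*-/- mice. The groups did not overlap in either genotype, and the ratio of means was 2.80 and 2.83. For *mt-Co1* the ratio to *mt-Cytb* was 15.3 to 17.5 in Poly-E and 23.5 to 27.0 in Ortho-E of *Ypel4*+/+ mice, and 11.9 to 15.9 and 19.5 to 22.7 in *Ypel4*-/- mice, again without overlap. The ratio of *mt-Nd1* to *mt-Cytb* was 1.15 times as high in Ortho-E of *Ypel4*+/+ mice, without overlap, and 1.05 times in *Ypel4*-/- mice, with overlap. The ratios of *mt-Nd2*, *mt-Nd4*, *mt-Nd5* and *mt-Nd6* to *mt-Cytb* overlapped between the populations in both genotypes, with ratios of means of 0.80 to 1.17. Within mice, *mt-Nd4* per *mt-Cytb* was higher in Ortho-E in 4 of 4 *Ypel4*+/+ and 3 of 4 *Ypel4*-/- mice, and *mt-Nd6* per *mt-Cytb* was lower in 4 of 4 *Ypel4*+/+ and 2 of 4 *Ypel4*-/- mice. *mt-Rnr2* per *mt-Rnr1* was higher in Ortho-E in 4 of 4 mice of each genotype, at means of 1.57 ± 0.476 and 2.12 ± 0.331 in *Ypel4*+/+ and 1.62 ± 0.487 and 2.26 ± 0.486 in *Ypel4*-/- mice (SD, n = 4 each). *mt-Rnr1* per *mt-Cytb* had ratios of means of 1.90 in *Ypel4*+/+ mice, with overlap, and 1.97 in *Ypel4*-/- mice, without overlap. It was higher in Ortho-E in 4 of 4 mice of each genotype. For *mt-Tp* per *mt-Cytb* they were 1.36 and 1.15, both with overlap, and the ratio was higher in 4 of 4 and 3 of 4 mice. *mt-Rnr2*, *mt-Rnr1* and *mt-Co1* were thus higher in Ortho-E relative to *mt-Cytb* in each mouse, whatever the scale.

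A second pattern in these ratios ran along the replicate numbers and not along the groups. *mt-Nd5* per *mt-Cytb* was 0.347 to 0.536 in the 8 libraries of replicates 1 and 2 and 0.649 to 0.785 in the 8 libraries of replicates 3 and 4, in both genotypes and populations. *mt-Nd2* per *mt-Cytb* was 0.161 to 0.221 and 0.223 to 0.291 in the same libraries, a division by a small margin. In contrast, *mt-Nd1* per *mt-Cytb* did not divide the libraries in this way, at 0.356 to 0.504 and 0.383 to 0.468. The labels name no batch, each pair of replicate numbers holds libraries of all 4 groups, and the division was seen after the data were examined. *mt-Rnr2* per *mt-Cytb* was higher in replicates 3 and 4 within each of the 4 groups, and the higher ratios of *mt-Rnr2* and *mt-Co1* to *mt-Cytb* in Ortho-E were present in each mouse. Depth divided in the same way, at 2670173 to 4029715 counts in the libraries of replicates 1 and 2 and 4505226 to 12451234 in those of replicates 3 and 4, and its part was not tested.

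**Figure D5:**
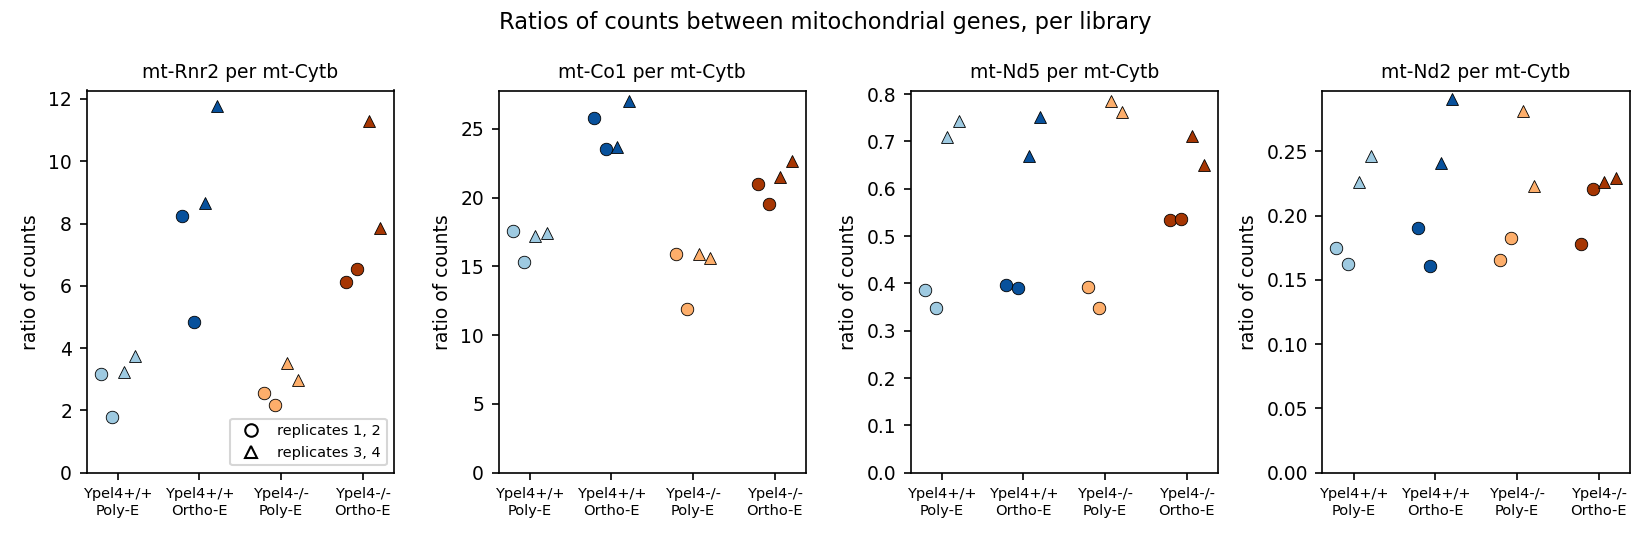
Counts of *mt-Rnr2*, *mt-Co1*, *mt-Nd5* and *mt-Nd2* divided by the counts of *mt-Cytb* in each library, by group. Circles are replicates 1 and 2 and triangles replicates 3 and 4. The ratios of *mt-Rnr2* and *mt-Co1* divide Poly-E from Ortho-E in both genotypes, and that of *mt-Nd5* divides the replicates, at most 0.536 for circles and at least 0.649 for triangles.

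*Ypel4*-/- mice were compared with *Ypel4*+/+ mice in each population, the study's own contrast. Among Poly-E libraries edgeR's quasi-likelihood test called 0 of the 10 members, and 0.00807% of 12395 tested genes in either direction. For Ortho-E libraries it called 0 of the 10 members, and 0.0285% of 10521 tested genes. DESeq2 called 0 of 10 in each population, and by edgeR the unadjusted p was under 0.05 for 3 members (*mt-Nd2*, *mt-Nd4* and *mt-Nd5*) and for 2 (*mt-Nd5* and *mt-Nd6*), against 2.19% and 3.68% of all tested genes. The fitted log2 fold changes (*Ypel4*-/- over *Ypel4*+/+) ran from 0.13 to 0.43 in Poly-E and from -0.07 to 0.48 in Ortho-E, with a median over the 7 mRNA genes of 0.38 and 0.25, against a median of all tested genes of 0.00 and 0.01. The lymphoid marker sums given above were also higher by median in *Ypel4*-/- libraries, at 63.1 against 53.2 CPM in Poly-E and 52.1 against 37.1 in Ortho-E, and their part was not tested.

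In Poly-E the lowest unadjusted p was that of *mt-Nd2*. It was at 36.8, 32.5, 34.3 and 34.6 CPM in *Ypel4*+/+ and at 35.9, 64.0, 49.8 and 37.7 in *Ypel4*-/- libraries, ranges that overlapped. The log2 fold change was 0.43 ± 0.15 (SE, adjusted p = 1.00 by edgeR), with an approximate 95% interval of 0.13 to 0.72, and it fell to 0.26 without *Ypel4*-/- Poly-E replicate 2. That replicate also had the highest *mt-Nd1* (146 CPM, against 64.8 to 88.8 in the 3 others) and *mt-Cytb* (350, against 169 to 218) of its group. For *mt-Co1* the interval in Poly-E was -0.15 to 0.45.

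In Ortho-E the lowest unadjusted p was that of *mt-Nd5*. It was at 96.7, 98.3, 137 and 129 CPM in *Ypel4*+/+ and at 159, 139, 183 and 143 in *Ypel4*-/- libraries, ranges that did not overlap by a small margin. The log2 fold change was 0.45 ± 0.13 (adjusted p = 1.00), with an interval of 0.20 to 0.71, and over the 10 alternative settings the adjusted p ran from 0.028 to 1.00. On the TMM scale *mt-Nd2* and *mt-Nd6* had Ortho-E libraries without overlap as well, which makes 3 of the 10 members (30%), measured in the same libraries, where 2.35% of all tested genes did not overlap. In Poly-E it was 0 of the 10 and 2.09%. This depended on the scale. As a share of all counts in Ortho-E, *mt-Nd5* reached 0.00912% in *Ypel4*+/+ mice and began at 0.00892% in *Ypel4*-/- mice, so that the groups overlapped. *mt-Nd2* overlapped too, reaching 0.00329% and beginning at 0.00315%. *mt-Nd6* did not, reaching 0.00105% in *Ypel4*+/+ and beginning at 0.00116% in *Ypel4*-/- mice. *mt-Nd6* was at 14.8, 15.999, 13.99 and 16.8 CPM in *Ypel4*+/+ and at 22.9, 22.6, 21.3 and 18.5 in *Ypel4*-/- libraries (0.48 ± 0.18 log2, adjusted p = 1.00). For *mt-Co1* the interval in Ortho-E was -0.21 to 0.28, and for *mt-Rnr2* it was -0.22 to 0.70. Per count of *mt-Cytb*, *mt-Co1* was lower in all 4 *Ypel4*-/- Ortho-E libraries (19.5 to 22.7) than in the 4 *Ypel4*+/+ Ortho-E libraries (23.5 to 27.0), and the groups overlapped in Poly-E. Every other ratio between members that was examined overlapped between the genotypes in both populations, and this one was named for its lack of overlap.

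Whether the difference between genotypes changed with the population was tested as an interaction over all 16 libraries. The test by edgeR called 0 of the 10 members and 0% of 13318 tested genes. Before adjustment 0 of the 10 had an edgeR p under 0.05, against 2.73% of all tested genes, and the count called by DESeq2 was 0. The lowest unadjusted p was that of *mt-Nd4*, with a log2 interaction of -0.21 ± 0.20 (adjusted p = 1.00) and an interval of -0.60 to 0.19. The widest interval was that of *mt-Rnr1*, -1.14 to 1.16.

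The nuclear genes that serve the mitochondrial genome were counted from 4 lists in the same fits, against the same shares of all tested genes: 26.4% higher and 32.1% lower with TMM and 10.4% and 60.3% with library totals in *Ypel4*+/+ mice, and 29.5% and 31.5%, and 11.2% and 60.9%, in *Ypel4*-/- mice. Of 16 tested genes for mitochondrial DNA transcription and replication, 4 were higher and 7 lower in Ortho-E of *Ypel4*+/+ mice on the TMM scale, at a median log2 fold change of -0.43 (2 higher and 12 lower with library totals). The median of all tested genes was -0.19. *Polg2*, an accessory subunit of the mitochondrial DNA polymerase, was higher at 2.44 ± 0.21, and so were *Rnaseh1*, which removes RNA from hybrids with DNA (2.62 ± 0.32), and *Tfb2m*, a transcription factor of the mitochondrial promoters (1.67 ± 0.22), all 3 above 0 with library totals too. *Tfam*, which packages mitochondrial DNA and starts its transcription, was lower (-2.07 ± 0.31). So was *Mgme1*, a nuclease for mitochondrial DNA (-2.18 ± 0.49), on 123 counts over the 4 Poly-E libraries and 8 over the 4 Ortho-E libraries. *Twnk*, the helicase, was called lower on 28 counts over the 4 Poly-E libraries and 1 over the 4 Ortho-E libraries. *Ypel4*-/- mice gave 4 higher and 7 lower of 16, with *Rnaseh1* at 2.68, *Polg2* at 2.41, *Tfb2m* at 1.99, *Tfam* at -1.77, *Tfb1m* at -2.22 and *Mterf2* with 37 counts in Poly-E and 2 in Ortho-E (3 higher and 10 lower with library totals).

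Of 24 tested genes for mitochondrial RNA processing, stability and decay, 2 were higher and 11 lower in *Ypel4*+/+ mice (median -0.85, where 26.4% of all tested genes were higher and 32.1% lower) and 2 higher and 12 lower in *Ypel4*-/- mice (median -0.83), against 1 higher and 21 lower in each genotype with library totals. *Lrpprc*, which stabilises mitochondrial mRNAs, was higher at 2.46 ± 0.14 in *Ypel4*+/+ mice (adjusted p = 5.6e-14) and 2.496 ± 0.13 in *Ypel4*-/- mice (adjusted p = 1.0e-17), and at 1.19 and 1.07 with library totals. *Ptcd1* was called higher at 1.12 and 1.47 on the TMM scale, and was at -0.17 and 0.06 with library totals. *Fastk* (-1.75) and *Pde12*, which removes poly(A) tails in mitochondria (-1.76), were lower in *Ypel4*+/+ mice, and *Ptcd2* (-1.84) and *Trmu*, a tRNA-modifying enzyme (-1.87), in *Ypel4*-/- mice. *Fastkd3* was called lower in both, on 40 counts in Poly-E and 3 in Ortho-E libraries of *Ypel4*+/+ mice and on 48 and 2 of *Ypel4*-/- mice.

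Of 76 tested mitochondrial ribosomal protein genes, 1 was higher and 46 lower in *Ypel4*+/+ mice, at a median of -1.20, and 2 were higher and 45 lower in *Ypel4*-/- mice, at a median of -1.12, where the medians of all tested genes were -0.19 and -0.09 and 32.1% and 31.5% of them were lower. These proteins form the mitochondrial ribosome with the products of *mt-Rnr1* and *mt-Rnr2*. *Mrpl32* was higher at 1.43 ± 0.30 and 1.44 ± 0.18, and at 0.15 and 0.02 with library totals, and *Mrpl48* was called higher at 0.54 in *Ypel4*-/- mice and was at -0.86 with library totals. *Mrpl55* fell by 2.91 on the log2 scale in *Ypel4*+/+ mice, on 207 counts in Poly-E and 8 in Ortho-E. *Mrpl58* fell by 2.51 in *Ypel4*-/- mice, on 78 and 4 counts, and *Mrps15* had 33 counts in Poly-E and 2 in Ortho-E there. *Mrpl44* and *Mrps35* had 0 counts in all 4 *Ypel4*+/+ Ortho-E libraries against 31 and 25 over the 4 Poly-E libraries, and *Mrpl23* had 0 against 24 in *Ypel4*-/- mice. With library totals 71 of the 76 were lower and 0 higher in each genotype, where 60.3% and 60.9% of all tested genes were lower.

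Of 75 nuclear subunit genes of the respiratory chain and ATP synthase, 12 were higher and 24 lower in *Ypel4*+/+ mice (median -0.14) and 12 higher and 31 lower in *Ypel4*-/- mice (median -0.21), where 32.1% and 31.5% of all tested genes were lower. The median was 0.05 above that of all tested genes in *Ypel4*+/+ mice and -0.12 from it in *Ypel4*-/- mice. Without that subtraction the list was at -0.14 and -0.21, and the median of the 7 mitochondrial mRNA genes at 0.47 and 0.44. *Atp5l* (1.94 and 1.47) and *Cox7b* (1.71 and 1.45) were higher in both genotypes, *Ndufa7* (1.37) in *Ypel4*+/+ and *Ndufb11* (1.11) in *Ypel4*-/- mice, and of these only *Ndufb11* was below 0 with library totals, at -0.31. *Atp5g2* (-2.05 and -1.92) was lower in both, *Ndufb5* (-1.76) and *Ndufv1* (-1.18) in *Ypel4*+/+ mice, and *Ndufb7* (-1.34) and *Ndufv3* (-1.32) in *Ypel4*-/- mice. With library totals 69 of the 75 were lower in each genotype, and 1 was higher in *Ypel4*+/+ and 0 in *Ypel4*-/- mice, where 60.3% and 60.9% of all tested genes were lower.

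In the comparisons of genotypes and in the interaction edgeR and DESeq2 each called 0 genes of the 4 lists. At an unadjusted p under 0.05, edgeR had 1 of 76, 1 of 70 and 1 of 76 ribosomal protein genes in Poly-E, Ortho-E and the interaction. Of the 75 respiratory chain and ATP synthase genes it had 1, 4 and 3 in the same order, and of the other lists 0. The share of all tested genes was 2.19%, 3.68% and 2.73%. The Poly-E list medians lay between 0.07 and 0.15. The highest and lowest single values there were *Fastkd5* (0.86 ± 0.50) and *Mrps18b* (-1.22 ± 0.54), on only 55 and 38 counts over all Poly-E libraries. The Ortho-E list medians lay between -0.11 and 0.12. There *Mrpl55* was at 2.06 ± 0.63 and *Mterf2* at -1.94 ± 1.05, on only 44 and 10 counts over all Ortho-E libraries.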

How the data were processed

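RNA-seq counts per gene were deposited for 16 libraries. Per the file headers, the authors counted read pairs with featureCounts 1.6.4 over exons of each gene, without strand, on GRCm38, and dropped pairs with more than 1 place or gene. The submitters' notes also name DESeq2. The other processing of the study was an nf-core/rnaseq run.

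Counts were tested as deposited with edgeR 4.0.16 (TMM, robust quasi-likelihood, R 4.3.3), in genes with at least 10 counts over the fit, with Benjamini-Hochberg adjustment over all tested genes and calls at an adjusted p of 0.05. Each population or genotype pair was fitted on its 8 libraries, and the interaction on 16. Levels used 1 TMM scale over 16 libraries, and lengths from the files. Values after ± beside fold changes are SE, and 95% intervals of fold changes use a normal approximation. DESeq2 1.42.0, library totals, other scalings and filters, a replicate block and leaving out each library were alternatives. The edgeR and DESeq2 scripts were tested on simulated data. Sequences were those of GENCODE M21, in which 37 of 37 members had the same position. An exact match of 75 bases to an annotated nuclear transcript counted as a copy.

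Poly-E and Ortho-E libraries of a number were taken as 1 mouse, since their deposited names share a further number. The correlation of their deviations from group means over 6700 genes was 0.345 to 0.51 in *Ypel4*+/+ and 0.0636 to 0.46 in *Ypel4*-/- mice. Libraries of other numbers reached 0.356 in *Ypel4*+/+ and 0.245 in *Ypel4*-/- mice, in each genotype above the lowest value of the same number. Between genotypes the correlation for the same number was 0.197 to 0.593 in Poly-E, where other numbers reached 0.541. The block changed no mitochondrial call in that comparison. Apart from the names, nothing said more on separate sampling, so p-values measure the spread between these libraries.

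Named genes were the 10 members with counts and, in each nuclear list, up to 3 called genes with the highest and 3 with the lowest fold change, or the highest and lowest where none was called. *mt-Nd2*, *mt-Nd5* and *mt-Nd4* were named for the lowest p. The members and lists were chosen with earlier results of these data known.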

Additional observations from a re-analysis of the deposited data

Results flagged for a closer look

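Of 44 sets of 4 libraries examined (each member and the share, by group), 4 had a single library whose gap to the nearest other exceeded Dixon's 95% critical value, and chance gives about 1 in 20. *mt-Rnr1* was at 743 CPM in *Ypel4*+/+ Poly-E replicate 1 and at 224 to 276 in the 3 others (gap 0.899 of the range), and without this library its fold change between populations was 1.89 in place of 1.21 on the log2 scale. *mt-Rnr2* was at 2905 CPM in *Ypel4*-/- Ortho-E replicate 3 and at 1703 to 1828 in the others (0.896), and over the fits that each left out 1 library its log2 fold change stayed between 1.64 and 2.03, the lowest without this library. In *Ypel4*-/- Ortho-E replicate 1, *mt-Nd1* was at 149 CPM against 95.3 to 101 in the others (0.894) and *mt-Tp* at 94.9 against 55.0 to 60.7 (0.857), and without this library the log2 fold change between populations was 0.21 in place of 0.44 for *mt-Nd1* and 0.33 in place of 0.59 for *mt-Tp*, neither called.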

How the results depend on the processing

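Library totals without TMM turned the direction of 9 members in each genotype. In *Ypel4*+/+ mice the log2 fold changes were -0.065 (*mt-Rnr1*), -0.73 (*mt-Nd1*), -0.81 (*mt-Nd2*), -0.37 (*mt-Co1*), -0.71 (*mt-Nd4*), -0.90 (*mt-Nd5*), -1.25 (*mt-Nd6*), -0.93 (*mt-Cytb*) and -0.50 (*mt-Tp*), with 1 member called higher and 8 lower. In *Ypel4*-/- mice they were -0.060, -0.98, -1.01, -0.50, -0.90, -0.85, -1.04, -1.05 and -0.84 in the same order, with 1 called higher and 7 lower. Over all genes these totals called 1217 higher and 7086 lower in *Ypel4*+/+ mice, against 3097 and 3774 with TMM, and 1338 and 7288 in *Ypel4*-/- mice, against 3538 and 3767. *mt-Nd6* in *Ypel4*+/+ mice, not called, was at -0.015 with no filter, and between -0.0047 and 0.23 when 1 library was left out. With a replicate block, 9 members were called higher in *Ypel4*+/+ and 10 in *Ypel4*-/- mice, with adjusted p down to 6.4e-99 on few residual degrees of freedom. In the genotype comparison 1 member was called higher in *Ypel4*-/- Ortho-E (*mt-Nd5*, 0.45, adjusted p = 0.028, where the 10 alternatives gave 0.028 to 1.00). Of all 10521 genes tested in that blocked fit, 8 were called higher and 7 lower. The Ortho-E numbers were not shown to pair mice across genotypes (correlations of -0.0959 to 0.255). Leaving out 1 library gave 6 to 9 members called higher in *Ypel4*+/+ and 5 to 8 in *Ypel4*-/- mice, and 0 in the genotype comparisons. Fitted on all 16 libraries, *mt-Nd1*, *mt-Nd5* and *mt-Tp* lost their calls in *Ypel4*+/+ mice and *mt-Nd2* in *Ypel4*-/- mice, and *mt-Rnr1* was called (adjusted p = 0.032) in *Ypel4*+/+ mice. With no filter *mt-Nd2* lost its call in *Ypel4*-/- mice (0.33, adjusted p = 0.072, where the 9 alternatives gave 7.4e-07 to 0.18), and *mt-Nd1* and *mt-Tp* gained one. DESeq2's size factors, scaling without mitochondrial or globin genes, DESeq2 and filterByExpr lost no call. A term for replicates 1 and 2 against 3 and 4, added after the data were seen, left the Ortho-E value of *mt-Nd5* at 0.46 (adjusted p = 0.26). The mitochondrial share was 0.630% in *Ypel4*+/+ Ortho-E with globin genes left out of the total, and without the rRNA genes it fell to 0.520% (Poly-E) and 0.387% (Ortho-E) in *Ypel4*+/+ mice, and to 0.415% in Ortho-E of *Ypel4*-/- mice. The causes were not tested. Depth limits *mt-Nd6* most, at 28 to 72 counts in *Ypel4*+/+ Ortho-E.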
